A study of Mus musculus with 22 samples.

Results

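Mouse primordial germ cells (PGCs) cultured for 2 days with bFGF and an inhibitor of the kinase GSK3 were set against PGCs cultured for 2 days with bFGF and no inhibitor. The arrays were chosen by their titles, and this pair makes up 2 of the 22 arrays of the series, 1 array for each condition. The series followed PGCs on their way to embryonic germ cell (EGC) lines, forced germ cell genes in embryonic stem cells, and gave PGC cultures single chemicals. In the culture described here CHIR99021, the GSK inhibitor, was present at 3 µM. Cultures with the MEK inhibitor PD325901 at 1 µM or with A83-01 at 250 nM, which blocks activin and TGF-beta receptors and is called A83 below, gave the range of other single additions at day 2. Further day 2 arrays held both inhibitors with A83 (2i and A83), the same with 4-hydroxytamoxifen (4OHT) at 100 nM, which the labels tie to AKT activation, and 4OHT alone. All of these cells began as E11.5 PGCs, grew in Knockout DMEM with serum replacement, LIF and bFGF, and were SSEA-1 positive. SSEA-1 is a surface glycan of PGCs and of naive stem cells, so the cells measured are the part of each culture that carried it.

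GSK3 is a kinase that marks beta-catenin for destruction. When Wnt ligands or CHIR99021 block the kinase, beta-catenin builds up, enters the nucleus and joins TCF/LEF proteins at target genes such as Axin2 and Sp5. In mouse embryonic stem cells GSK3 inhibition together with MEK inhibition holds the naive pluripotent state, and the same pair is used to turn PGCs into EGCs.

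Total RNA was labelled with Cy3 and hybridised to 1-colour Agilent arrays. A level here is the log2 of a probe's processed signal minus the log2 of the 75th percentile of that array, so a level of 0 is as bright as that percentile. A gene was counted where its probe was called well above background on at least 1 side. Where the other side was dim, the difference is a bound and is written as "at least". The GSK inhibitor array had 58.9% of its probes well above background, against 61.5% with the MEK inhibitor, 63.3% with A83 and 60.2% with bFGF alone. Repeated spots of a probe on the GSK inhibitor array differed by a median SD of 0.06 on the log2 scale. The GSK inhibitor, MEK inhibitor and A83 arrays lay on 1 slide, and the bFGF array lay on another. Slide and treatment therefore cannot be told apart in the difference from bFGF, and the differences from the MEK inhibitor and A83, within the slide, are given beside it. With 1 array on each side no difference below has a replicate check, and none carries a p-value unless the additive model is named.

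All 14 PGC markers on the array were well above background in both. Dppa3, a maternal and germ cell factor, had levels of 4.26 with the GSK inhibitor and 4.40 with bFGF. Kit, the receptor for stem cell factor, had levels of 0.72 with the GSK inhibitor and 1.12 with bFGF. Over the 14 markers the median difference was -0.06. One marker was at least 2-fold higher, Nanos3, an RNA-binding protein that PGCs need to survive, at -0.04 with the GSK inhibitor and -1.31 with bFGF. Tfap2c, a PGC specification factor, stood at 3.17 with the GSK inhibitor and 2.29 with bFGF. Prdm1, the repressor that starts PGC specification, stood at -1.84 with the GSK inhibitor and -1.08 with bFGF. With A83 the same list had a median difference of -1.53 from the same bFGF array, and with the MEK inhibitor one of -0.15. In bulk RNA, fewer cells of a type and less RNA per cell cannot be told apart, here and for every list below.

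Across all genes, 3188 of 17287 (18.4%) differed at least 2-fold between the GSK inhibitor and bFGF. Of them 1997 were higher (11.6%) and 1191 were lower (6.89%), and the median of all genes was 0.14. These shares stand beside every count of list members against bFGF below. At least 4-fold differences were seen for 282 genes higher and 227 lower. The MEK inhibitor differed from the same bFGF array for 1717 of 17582 genes (9.77%) and A83 for 2326 of 17980 (12.9%). Within the slide, the GSK inhibitor differed at least 2-fold from the MEK inhibitor for 1618 of 17464 genes (9.26%) and from A83 for 2714 of 17825 (15.2%). Called genes measured on both arrays were set against their other probes that were well above background on both. All such probes had the same sign for 194 of 244 higher genes (79.5%) and 291 of 336 lower genes (86.6%). All were at least 2-fold apart in that direction for fewer, 104 higher genes (42.6%) and 200 lower genes (59.5%).

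Some of these genes were read from clusters of bright neighbouring spots. On each of the 5 day 2 arrays without 4OHT there were patches of adjacent spots, of unrelated genes, that stood far above the same spots on the other arrays. A spot was placed in a patch where it was at least 2-fold above the median of the 4 other arrays and at least 2 of its 18 nearest spots were at least 4-fold above. The GSK inhibitor array had 432 such spots of 43379, the MEK inhibitor array 337, the A83 array 514 and the bFGF array 410. Without the genes in them, 2839 of 16841 (16.9%) differed at least 2-fold, 1806 higher (10.7%) and 1033 lower (6.13%). The rule for patches was made after the values had been seen.

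**Figure D1:**
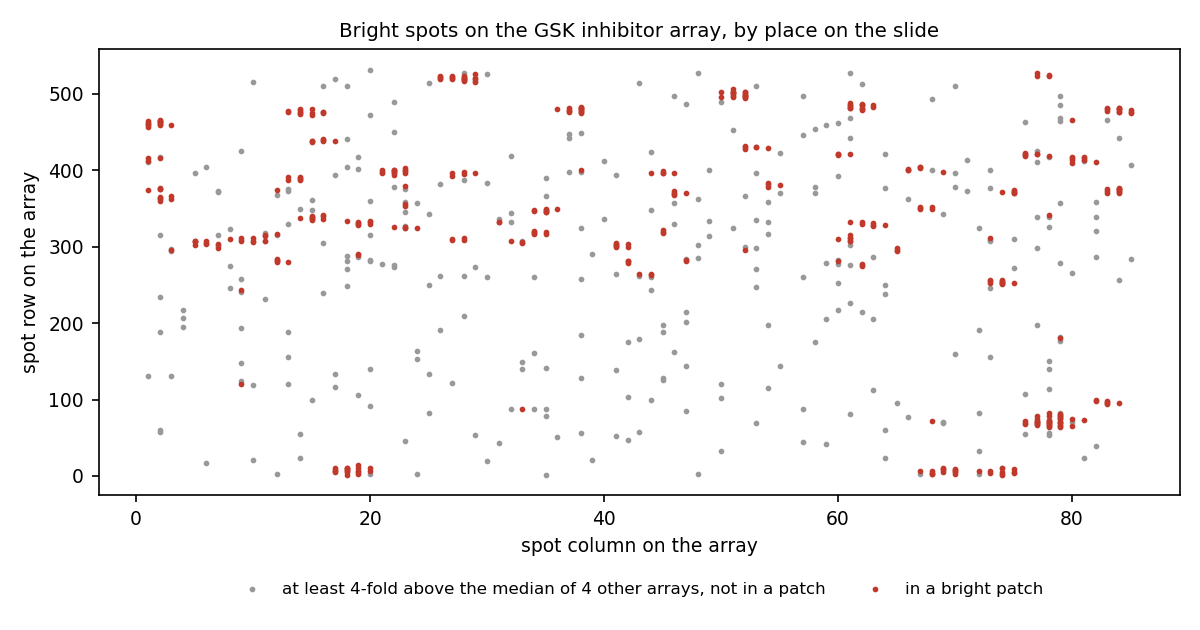
Spots on the GSK inhibitor array by their column (x axis) and row (y axis); red spots lie in a bright patch and grey spots were at least 4-fold above the median of the 4 other day 2 arrays without lying in one. The 432 red spots form separate groups over the array.

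Wnt targets were split. Of 24 listed genes 23 were on the array and 19 could be measured, of which 4 were at least 2-fold higher and 3 lower with the GSK inhibitor, against 11.6% and 6.89% of all genes. The median difference of the 19 was 0.31, against 0.14 over all genes, and 12 stood above and 7 below bFGF. Some members entered only because the GSK inhibitor array was bright. Of the 15 well above background on both arrays 2 were at least 2-fold higher and 2 lower. Their median was 0.17, close to the 0.14 of all genes under that filter. Over its own measured members the list had medians of -0.19 with the MEK inhibitor and -0.13 with A83, each against the same bFGF array.

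Sp5, a transcription factor and direct beta-catenin target, had the largest measured difference of the list. Its level was -1.98 with the GSK inhibitor, -4.17 with the MEK inhibitor, -4.38 with A83 and -4.29 with bFGF. The GSK inhibitor array stood alone, 4.98-fold above bFGF, and the other 3 arrays lay close together. Sp8, a related zinc finger factor, had a level of -3.42 with the GSK inhibitor and was not well above background with the MEK inhibitor, A83 or bFGF, which makes it at least 3.88-fold higher than with bFGF. Notum, a secreted enzyme that inactivates Wnt proteins, was likewise well above background on the GSK inhibitor array alone of the 4, at -4.51, and at least 1.82-fold higher than with bFGF. Both could be measured at all only through the GSK inhibitor array, so they add nothing to the pattern of Sp5.

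Feedback inhibitors of the pathway were split. Rnf43, a ligase that removes Wnt receptors, had levels of -2.67 with the GSK inhibitor, -3.28 with A83 and -3.99 with bFGF, a 2.49-fold difference from bFGF. Nkd1, an inhibitor of Dishevelled, stood at -2.14 with the GSK inhibitor, -3.22 with the MEK inhibitor, -3.14 with A83 and -2.64 with bFGF. Nkd2, its relative, stood at -3.11 with the GSK inhibitor, -4.19 with the MEK inhibitor, -3.77 with A83 and -3.42 with bFGF. All of these were highest with the GSK inhibitor. Axin2, the scaffold most used as a readout of the pathway, was not. Its level was -3.77 with the GSK inhibitor, -4.42 with the MEK inhibitor, -4.68 with A83 and -3.51 with bFGF, so it lay 1.20-fold below bFGF across slides and 1.57-fold above the MEK inhibitor and 1.88-fold above A83 within the slide. Znrf3, the partner of Rnf43, had levels of -2.64 with the GSK inhibitor and -2.63 with bFGF.

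The DNA-binding partners of beta-catenin on the list differed by less than 2-fold. Lef1 had levels of -0.80 with the GSK inhibitor, -0.70 with the MEK inhibitor, -1.81 with A83 and -0.96 with bFGF. Tcf7 had levels of -1.31 with the GSK inhibitor, -1.12 with the MEK inhibitor, -1.35 with A83 and -0.77 with bFGF. Neither stood out from the other single additions. Lgr5, a receptor for R-spondins, was at -3.41 with the GSK inhibitor and dim with bFGF, at least 3.90-fold higher. It was also at -2.90 with A83, so it was not particular to the GSK inhibitor array. Ccnd1, the G1 cyclin D1, stood at 3.19 with the GSK inhibitor, 3.12 with the MEK inhibitor, 4.12 with A83 and 2.19 with bFGF, and all 3 additions lay above bFGF.

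Some listed targets were lower. Myc, a growth regulator, had levels of 1.28 with the GSK inhibitor, 1.80 with the MEK inhibitor, 2.21 with A83 and 2.38 with bFGF. Ccn4, a matrix-associated signalling protein, had levels of 1.30 with the GSK inhibitor, 2.58 with the MEK inhibitor, 2.05 with A83 and 2.86 with bFGF. Ccn5, another member of that family, was dim with the GSK inhibitor and at -0.52 with bFGF, at least 21.3-fold lower. For these genes the GSK inhibitor array was the lowest of the 4, and the last is also made by fibroblasts, whose markers are described below. Apcdd1, a membrane inhibitor of Wnt signalling, stood at 1.75 with the GSK inhibitor, 2.70 with the MEK inhibitor, 3.48 with A83 and 2.48 with bFGF. The other measured members, Cd44, Ascl2 and Tnfrsf19, differed from bFGF by 0.17, 0.70 and 0.70 on the log2 scale. Dkk1, a secreted Wnt antagonist, was dim on all 4 arrays. Cdx2, a caudal homeobox factor, was well above background with A83 alone of the 4.

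**Figure D2:**
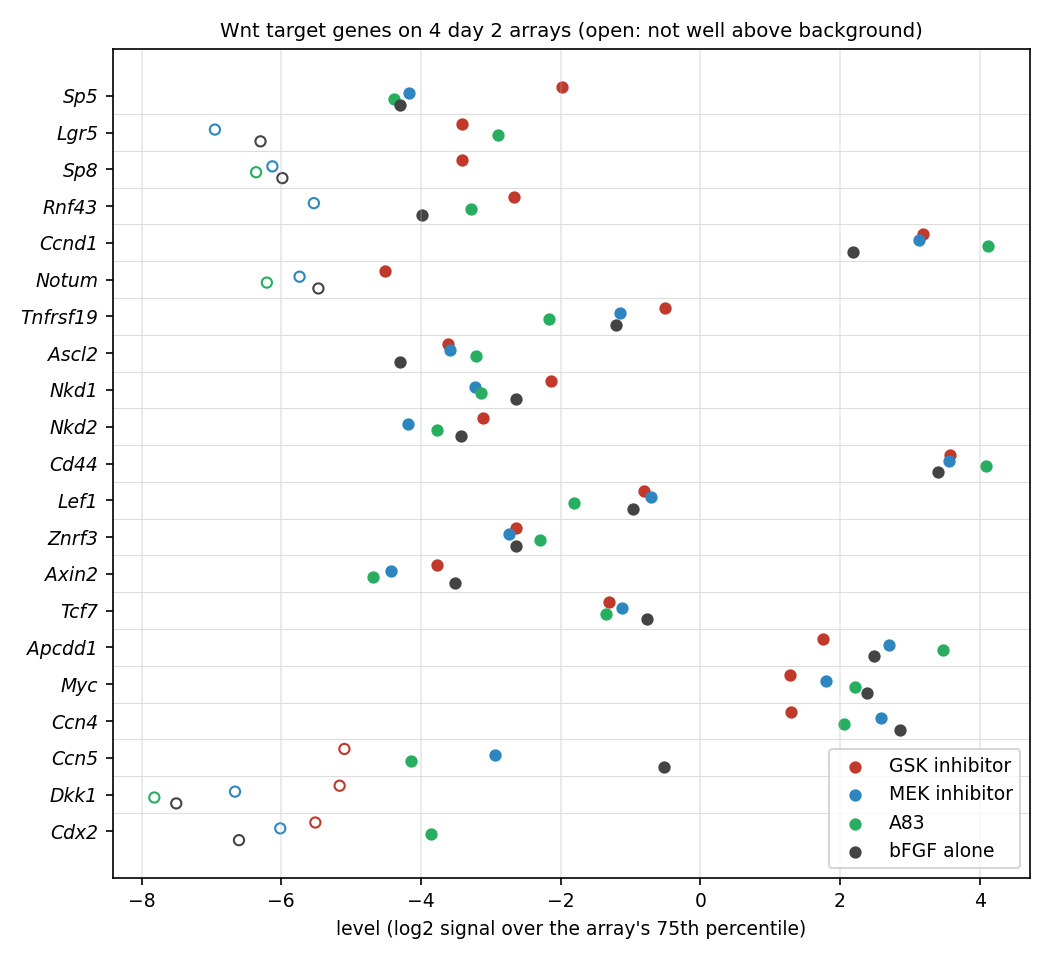
Levels of the Wnt target genes (x axis, log2 signal over the 75th percentile of the array) on 4 day 2 arrays, with genes on the y axis ordered by the difference between the GSK inhibitor and bFGF. Filled points are well above background and open points are not. Sp5 has the GSK inhibitor point apart on the right, and Axin2 does not. For Sp8 and Notum only the GSK inhibitor point is filled.

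The promoters of 3 of these genes are printed. Sp5 stood apart with the GSK inhibitor, Sp8 could be measured only through that array, and Axin2 did not stand apart. The windows run from 250 bases before to 50 bases after the start of transcription and come from RefSeq on build GRCm38.p6. They were searched on both strands for the TCF/LEF motifs CTTTGAA and also CTTTGAT, as well as CTTTGTA and also CTTTGTT, and capitals mark each match. Sp5 lies at chr2:70474673-70474972, Sp8 at chr12:118846983-118847282 and Axin2 at chr11:108920099-108920398, all on the plus strand, and the Sp8 window is 1 of the 3 listed for that gene. It was printed because it holds the most matches, and the other Sp8 windows hold 0.
Sp5: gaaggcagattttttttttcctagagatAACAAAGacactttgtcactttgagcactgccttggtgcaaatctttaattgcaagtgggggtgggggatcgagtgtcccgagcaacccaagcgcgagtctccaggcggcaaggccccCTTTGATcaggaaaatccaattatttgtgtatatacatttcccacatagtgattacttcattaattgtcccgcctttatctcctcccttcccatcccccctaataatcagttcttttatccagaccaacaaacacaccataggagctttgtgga
Sp8: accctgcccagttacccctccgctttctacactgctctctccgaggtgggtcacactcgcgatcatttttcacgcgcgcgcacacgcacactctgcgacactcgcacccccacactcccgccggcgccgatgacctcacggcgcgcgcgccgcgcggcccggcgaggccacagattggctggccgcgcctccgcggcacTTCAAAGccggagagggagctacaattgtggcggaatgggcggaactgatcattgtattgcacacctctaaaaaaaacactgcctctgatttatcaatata
Axin2: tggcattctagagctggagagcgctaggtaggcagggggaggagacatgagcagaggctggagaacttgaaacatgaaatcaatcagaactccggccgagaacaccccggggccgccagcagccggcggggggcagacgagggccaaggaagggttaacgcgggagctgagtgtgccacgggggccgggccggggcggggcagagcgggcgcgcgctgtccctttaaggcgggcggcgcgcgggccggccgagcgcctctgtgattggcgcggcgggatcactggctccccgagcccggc
The Sp5 window holds 2 matches, which begin 222 and 104 bases before the start, and the Sp8 window holds 1, which begins 51 bases before it. The Axin2 window holds none, which says only that these letters are not in it. Of 32851 windows 16.9% hold a match and 1.94% hold at least 2. Of the 24 listed Wnt targets 15 have windows, 23 in all, and 26.1% of those windows hold a match. A match is a string of letters and not a shown binding site.

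The upstream parts of the pathway were read from separate lists. Of 14 measured Wnt ligands and secretion factors, 4 were at least 2-fold higher and 1 lower, against 11.6% and 6.89% of all genes, with a median of 0.50. After another background correction, normexp, 1 was higher, and of the 11 well above background on both arrays 2 were, with a median of 0.28. Wnt7b had levels of 0.99 with the GSK inhibitor, -0.10 with the MEK inhibitor, 0.49 with A83 and -0.86 with bFGF, and it was the highest of the list by difference. Wnt4, a ligand of the gonadal soma, was 2.64-fold lower, at -1.66 with the GSK inhibitor and -0.26 with bFGF. Of 15 receptors and R-spondins 2 were at least 2-fold higher, Fzd6 and Ror2, and the median was 0.37. Among 9 secreted inhibitors 2 were at least 2-fold higher and 3 lower. Sfrp2 had levels of -1.06 with the GSK inhibitor, -0.36 with the MEK inhibitor, -0.99 with A83 and 0.94 with bFGF. Sfrp4 was 5.46-fold lower with the GSK inhibitor than with bFGF. Both are secreted by stromal cells.

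The machinery between receptor and nucleus was nearly level. Ctnnb1, which encodes beta-catenin, had levels of 3.81 with the GSK inhibitor and 3.79 with bFGF. The level of Gsk3b differed from bFGF by -0.09, and Gsk3a stood at -1.77 with the GSK inhibitor and -2.07 with bFGF. The arrays measured RNA, so neither kinase activity nor the amount of beta-catenin protein was read. Over 27 such genes the median was -0.07, with 3 at least 2-fold higher and 2 lower. Dvl3, a Dishevelled protein, had the largest difference, at -2.47 with the GSK inhibitor, -4.26 with the MEK inhibitor, -4.40 with A83 and -5.14 with bFGF. Tle3, a Groucho corepressor, stood at 2.81 with the GSK inhibitor, 2.39 with the MEK inhibitor, 2.21 with A83 and 1.31 with bFGF. Apc, part of the destruction complex, was 2.13-fold lower with the GSK inhibitor than with bFGF.

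Primitive streak genes, many of which answer to Wnt in the gastrulating embryo, were read next. Of 18 on the array 11 could be measured, with a median of 0.84. Of these 5 were at least 2-fold higher and 0 lower, against 11.6% and 6.89% of all genes. Some entered only because the GSK inhibitor array was bright. Of the 6 well above background on both arrays 2 were at least 2-fold higher, and after normexp 2 of the 11 were. Over their own measured members the MEK inhibitor and A83 had medians of 0.04 and -0.03. The culture with 4OHT alone, without the GSK inhibitor, had a median of 1.34 from bFGF over the 11, with dim levels as read. With 2i and A83, on the bFGF slide, the list median was 0.01. Mixl1, a homeobox factor of the streak, was at -3.19 with the GSK inhibitor and dim with the MEK inhibitor, A83 and bFGF, which makes it at least 4.53-fold higher than with bFGF. Eomes, a T-box factor, was at -3.73 with the GSK inhibitor and dim with bFGF, but was also at -3.62 with the MEK inhibitor. Fgf8 had levels of -2.36 with the GSK inhibitor, -2.34 with the MEK inhibitor, -2.68 with A83 and -3.51 with bFGF, so all 3 additions lay above bFGF. Within the list, Mixl1 and Sp5 were at least 2-fold above all 3 other arrays.

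Of 32 measured naive pluripotency genes 5 were at least 2-fold higher and 3 lower, near the 11.6% and 6.89% of all genes, so by that count the list did not stand out. Its median was 0.52, and 23 members stood above bFGF, as 23 did with the MEK inhibitor. With the GSK inhibitor 23 of them stood above all 3 other arrays, against 39.0% of all genes. Their medians were 0.20 with the MEK inhibitor and -0.84 with A83. Within the slide the median difference was 0.28 from the MEK inhibitor and 1.42 from A83. Dnmt3l, a cofactor of the DNA methyltransferases, had levels of 0.18 with the GSK inhibitor, -0.18 with the MEK inhibitor, -1.21 with A83 and -2.19 with bFGF. Eras, a Ras protein of embryonic stem cells, stood at -2.55 with the GSK inhibitor, -2.77 with the MEK inhibitor, -2.65 with A83 and -4.72 with bFGF. For both genes bFGF alone was the lowest and all 3 additions lay above it.

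Nr0b1, an orphan receptor of the naive network, was the 1 member at least 2-fold above all 3 other arrays. Its levels were 0.63 with the GSK inhibitor, -0.47 with the MEK inhibitor, -1.06 with A83 and -1.44 with bFGF, and it was 2.14-fold above the next array. Esrrb, a GSK3-responsive member of the naive network in mouse stem cells, had levels of 2.46 with the GSK inhibitor, 2.29 with the MEK inhibitor, 0.71 with A83 and 2.04 with bFGF. Tfcp2l1, a naive transcription factor, stood at 1.66 with the GSK inhibitor, 0.98 with the MEK inhibitor, 0.48 with A83 and 0.90 with bFGF. Pou5f1, the core factor Oct4, stood at 3.88 with the GSK inhibitor, 3.46 with the MEK inhibitor, 1.88 with A83 and 3.37 with bFGF. These were differences of less than 2-fold from bFGF.

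Some naive genes tied to LIF signalling, named after their values had been seen, stood lower. Klf4, a naive factor downstream of Stat3, had levels of 2.67 with the GSK inhibitor, 3.76 with the MEK inhibitor, 3.68 with A83 and 3.90 with bFGF. Stat3 itself stood at 1.77 with the GSK inhibitor, 2.24 with the MEK inhibitor, 2.31 with A83 and 3.01 with bFGF. Lifr, the LIF receptor, and Socs3, the feedback inhibitor of the pathway, were 2.19-fold and 1.75-fold lower with the GSK inhibitor than with bFGF, and 1 of the 4 other Lifr probes stood higher, by 0.57 on the log2 scale. These 4 genes were lowest with the GSK inhibitor among the 4 arrays. LIF-responsive genes did not share this as a group, since Tfcp2l1, above, and Klf5, by 0.48 on the log2 scale, stood higher than with bFGF. Klf4 on the GSK inhibitor array was also 2.02-fold below the next array, the A83 one.

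Of 12 measured genes of the primed epiblast, the later pluripotent state, 6 were at least 2-fold higher and 1 lower, against 11.6% and 6.89% of all genes, with a median of 1.01. Of the 9 well above background on both arrays 4 were at least 2-fold higher, and after normexp 3 of the 12 were. The culture with 4OHT alone, without the GSK inhibitor, had a median of 1.80 from bFGF over the 12, with dim levels as read. With 2i and A83, on the bFGF slide, the list median was -0.09. Pou3f1, the epiblast factor Oct6, had levels of 0.73 with the GSK inhibitor, 0.06 with the MEK inhibitor, -0.21 with A83 and -0.45 with bFGF. Foxd3, a forkhead factor, was at -3.34 with the GSK inhibitor and dim with bFGF, at least 4.10-fold higher. Lefty1, an inhibitor of Nodal, was lower, at -2.81 with the GSK inhibitor and -1.63 with bFGF. Among 26 later germline genes, by contrast, 0 were at least 2-fold higher and 4 lower, and the median was 0.05, which becomes -0.03 when arrays are scaled to their medians. Stra8, the gene that opens meiosis, had levels of 3.19 with the GSK inhibitor, 2.91 with the MEK inhibitor, 1.80 with A83 and 4.41 with bFGF, where its bFGF spot lies in a bright patch. Smc1b, a meiotic cohesin, stood at -1.63 with the GSK inhibitor and -0.12 with bFGF.

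Epithelial genes stood higher. Of 30 measured members 16 were at least 2-fold higher and 1 lower, against 11.6% and 6.89% of all genes. The median was 1.20, and 27 of 30 stood above all 3 other arrays, against 39.0% of all genes. With the MEK inhibitor the median was -0.36, with 0 members at least 2-fold higher and 7 lower (6.20% and 3.57% of all genes). With A83 it was 0.34, with 5 higher and 2 lower (6.95% and 5.99% of all genes). Against the MEK inhibitor within the slide, 18 members were at least 2-fold higher and 0 lower (5.82% and 3.45% of all genes), with a median of 1.31.

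Members of several kinds shared this. Krt8, a simple keratin, had levels of 5.96 with the GSK inhibitor, 2.72 with the MEK inhibitor, 4.77 with A83 and 3.95 with bFGF, and its second probe differed from bFGF by 1.83. Its partner Krt18 stood at 7.09 with the GSK inhibitor, 4.85 with the MEK inhibitor, 6.41 with A83 and 5.33 with bFGF. The tight junction protein Ocln stood at -2.08 with the GSK inhibitor, -2.75 with A83 and -4.09 with bFGF, and was dim with the MEK inhibitor. In each case A83 came next and the MEK inhibitor lay lowest. Cldn6, a claudin of embryonic epithelia, stood at 1.22 with the GSK inhibitor, -1.83 with the MEK inhibitor, 0.24 with A83 and -0.63 with bFGF. Grhl2, a transcription factor that keeps epithelial genes on, stood at -0.71 with the GSK inhibitor, -2.18 with the MEK inhibitor, -2.01 with A83 and -2.41 with bFGF. Perp, a desmosome protein that is also a p53 target, stood at 3.63 with the GSK inhibitor, 1.69 with the MEK inhibitor, 2.65 with A83 and 1.31 with bFGF. Its difference from bFGF, 4.97-fold, was the largest of the list.

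Adhesion genes that germ cells share with epithelia differed less. Cdh1, which encodes E-cadherin, had levels of 0.55 with the GSK inhibitor, -0.17 with the MEK inhibitor, -0.15 with A83 and 0.29 with bFGF. Epcam stood at 0.58 with the GSK inhibitor, 0.06 with the MEK inhibitor, -0.70 with A83 and 0.03 with bFGF. Both were highest with the GSK inhibitor, by less than 2-fold over bFGF. Dsp, which encodes desmoplakin, was the member at least 2-fold lower, at -1.23 with the GSK inhibitor, -1.22 with the MEK inhibitor, -1.29 with A83 and -0.05 with bFGF, and it was as low on the other arrays of that slide.

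Fibroblast genes stood lower. Of 19 measured members 13 were at least 2-fold lower and 1 higher, against 6.89% and 11.6% of all genes, and the median was -2.42. With the mean over all probes of a gene the median was -1.32 and after normexp -1.44. The same list had a median of -1.10 with the MEK inhibitor, where 10 members were at least 2-fold lower, and of -1.37 with A83, where 12 were, against 3.57% and 5.99% of all genes. Against the MEK inhibitor within the slide the median was -1.49, with 12 members at least 2-fold lower and 1 higher (3.45% and 5.82% of all genes). In 9 members the GSK inhibitor array was at least 2-fold below all 3 other arrays, against 1.66% of all genes.

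Col3a1, a fibrillar collagen, had levels of 1.50 with the GSK inhibitor, 3.51 with the MEK inhibitor, 2.70 with A83 and 5.49 with bFGF. Dcn, a matrix proteoglycan, stood at 4.10 with the GSK inhibitor, 5.72 with the MEK inhibitor, 5.25 with A83 and 6.86 with bFGF. Pdgfra, a growth factor receptor of mesenchyme, stood at -4.60 with the GSK inhibitor, -2.82 with the MEK inhibitor, -2.14 with A83 and -2.02 with bFGF. The GSK inhibitor array was lowest for all of them and bFGF highest. Postn, a matrix protein, departed from this order, at -0.94 with the GSK inhibitor, -2.85 with the MEK inhibitor, -4.83 with A83 and -0.36 with bFGF. Bgn, another matrix proteoglycan, was the member that stood higher, at -0.90 with the GSK inhibitor, -1.21 with the MEK inhibitor, -1.50 with A83 and -2.31 with bFGF.

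Transcription factors of the epithelial to mesenchymal transition stood lower too. Of 13 listed transition and mesenchymal genes 9 were at least 2-fold lower and 0 higher, against 6.89% and 11.6% of all genes. The median was -1.12, and 12 were below all 3 other arrays, against 25.0% of all genes. With 4OHT alone, without the GSK inhibitor, the median difference from bFGF was -1.50. With 2i and A83, on the bFGF slide, it was -0.18. Snai1 had levels of -1.82 with the GSK inhibitor, -0.69 with the MEK inhibitor, -0.30 with A83 and 0.45 with bFGF. Zeb2 stood at -1.78 with the GSK inhibitor, -0.51 with the MEK inhibitor, -0.32 with A83 and 0.24 with bFGF. Twist2 stood at -0.71 with the GSK inhibitor, 0.87 with the MEK inhibitor, 1.39 with A83 and 0.64 with bFGF. All 3 are repressors or regulators that push cells to a mesenchymal state. Vim, the intermediate filament vimentin, stood higher, at 6.70 with the GSK inhibitor, 6.42 with the MEK inhibitor, 6.89 with A83 and 6.09 with bFGF. Of 21 measured collagen genes, 14 were at least 2-fold lower and 0 higher, against 6.89% and 11.6% of all genes. Of the 21, 6 are also on the fibroblast list.

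The level of fibroblast transcripts differed widely among the day 2 cultures. The median level of the list was -0.50 with the GSK inhibitor, 0.82 with the MEK inhibitor, 0.88 with A83, 1.88 with 2i and A83, -3.72 with 2i, A83 and 4OHT, -2.25 with 4OHT and 1.92 with bFGF. The arrays of the bFGF slide were therefore highest, those of the GSK inhibitor's slide lay between, and those of the 4OHT slide were lowest. The median level of the epithelial list was 0.69 with the GSK inhibitor, -0.51 with the MEK inhibitor, -0.11 with A83, 0.01 with 2i and A83, 1.43 with 2i, A83 and 4OHT, 0.87 with 4OHT and -0.36 with bFGF. The culture with 4OHT alone, which had no GSK inhibitor, had 26 of 30 epithelial genes above bFGF and 16 of 19 fibroblast genes below it. On the bFGF slide, where 2i with A83 includes the GSK inhibitor, the median difference of that culture from bFGF was 0.29 for epithelial and 0.05 for fibroblast genes. On the 4OHT slide the culture with 2i, A83 and 4OHT differed from 4OHT by 0.34 for epithelial and -0.30 for fibroblast genes. The part of the slide in the difference was not tested.

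Markers of other cells that a culture of the gonad region could hold were read as well. Of 14 blood cell markers 7 were well above background with the GSK inhibitor and 6 with bFGF, and the median difference of the 8 that could be measured was 0.30, with 6 above and 2 below bFGF. Ptprc, the pan-leukocyte CD45, was at -4.60 with the GSK inhibitor and dim with bFGF. Of 13 measured gonadal somatic markers 4 were at least 2-fold higher and 3 lower, against 11.6% and 6.89% of all genes, with a median of 0.33. Nr5a1, a steroidogenic factor of the gonad, stood at -1.38 with the GSK inhibitor, -1.64 with the MEK inhibitor, -2.04 with A83 and -3.65 with bFGF. Wt1, a factor of the gonadal and kidney mesenchyme, was dim with the GSK inhibitor and at -3.68 with bFGF. Of 11 kidney tubule markers 4 were at least 2-fold higher and 1 lower, against 11.6% and 6.89% of all genes, with a median of 0.71. Cdh16, a cadherin of kidney tubules, stood at 2.77 with the GSK inhibitor, 0.33 with the MEK inhibitor, 2.66 with A83 and 2.06 with bFGF. Its order over the 4 arrays was that of Krt8, which kidney tubules also express. Pax8, a factor of the same tissue, stood at -2.80 with the GSK inhibitor, -3.10 with A83 and -4.35 with bFGF and was dim with the MEK inhibitor. The part of such cells in the epithelial difference was not tested.

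**Figure D3:**
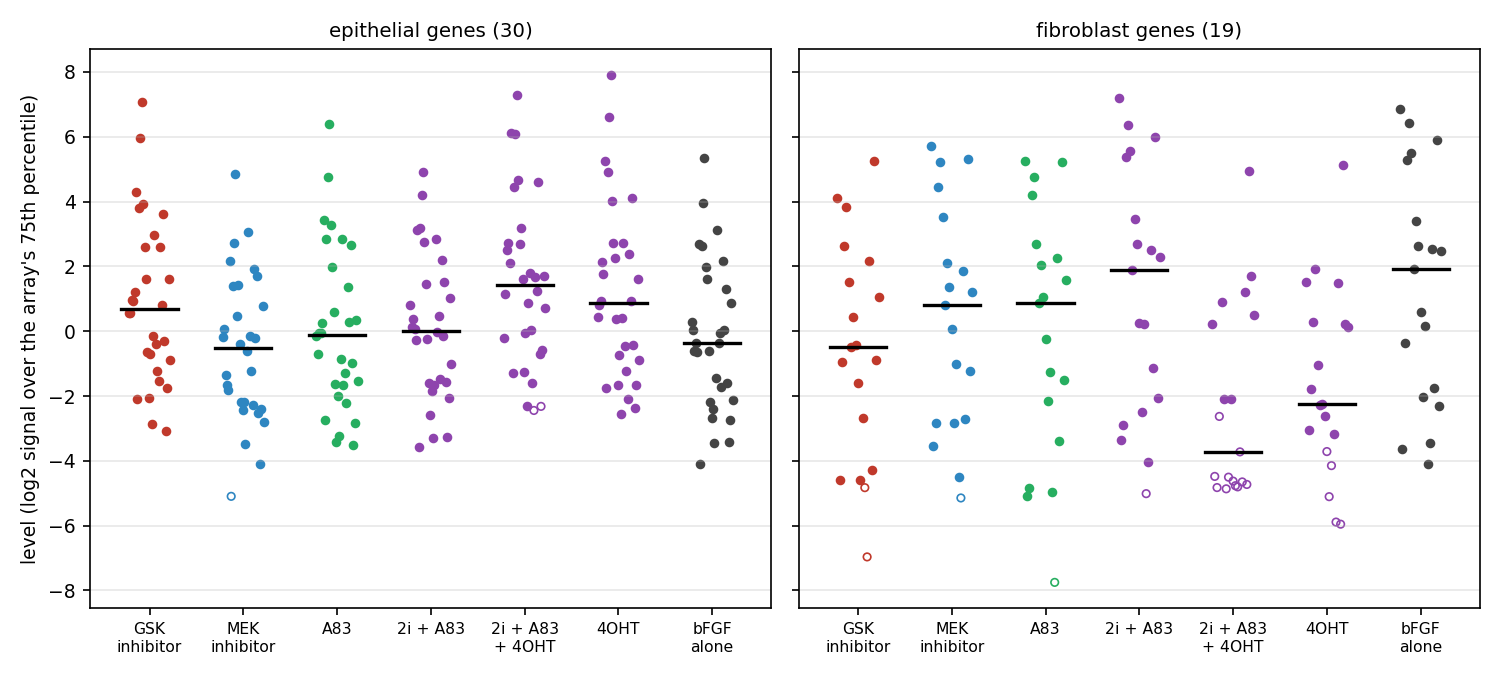
Levels of the members of the epithelial list (left) and fibroblast list (right) on the 7 day 2 arrays (y axis, log2 signal over the 75th percentile of the array; black bars are medians over members, open points are not well above background). Fibroblast genes have a median of -0.50 with the GSK inhibitor, against 1.92 with bFGF, and are lower still in the cultures with 4OHT.

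Immediate early genes, which are induced within minutes of a growth signal or of handling, stood lower. Of 14 members 5 were at least 2-fold lower and 0 higher, with a median of -0.74, and 11 stood below all 3 other arrays, against 6.89%, 11.6% and 25.0% of all genes. Egr1 had levels of 2.92 with the GSK inhibitor, 4.65 with the MEK inhibitor, 5.13 with A83 and 5.02 with bFGF. Fosb stood at -2.64 with the GSK inhibitor, -1.02 with the MEK inhibitor, 0.76 with A83 and -1.42 with bFGF. Zfp36, an RNA-decay factor, stood at -0.54 with the GSK inhibitor, 0.35 with the MEK inhibitor, 1.30 with A83 and 1.33 with bFGF. The MEK inhibitor, which acts on the kinase cascade above these genes, had a list median of -0.10 and A83 one of 0.39. The culture with 4OHT alone, which had no GSK inhibitor, had a median of -1.05 from bFGF, with 11 of 14 members below it. On the bFGF slide 2i with A83, which includes the GSK inhibitor, had one of 0.06. The part of the slide was not tested.

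Of 14 measured ERK-responsive genes 4 were at least 2-fold higher and 1 lower, against 11.6% and 6.89% of all genes, with a median of 0.33. The list median was 0.19 with the MEK inhibitor, where 0 members were at least 2-fold lower, and 0.64 with A83. With 2i and A83 it was -0.825, and all 14 stood below bFGF. Some members that stood higher were named after their values had been seen. Spry4, a Sprouty inhibitor of receptor signalling, had levels of -0.36 with the GSK inhibitor, -1.48 with the MEK inhibitor, -1.46 with A83 and -2.05 with bFGF. Spry1 stood at 3.33 with the GSK inhibitor, 0.95 with the MEK inhibitor, 2.03 with A83 and 1.92 with bFGF. Both were at least 2-fold above all 3 other arrays. Etv4, an ETS factor, stood at 1.67 with the GSK inhibitor, 1.17 with the MEK inhibitor, 1.65 with A83 and 0.27 with bFGF. The list also holds Egr1, which stood lower.

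Other signalling lists were mixed. Of 16 targets of p53, 13 stood above bFGF and 3 were at least 2-fold higher, against 11.6% of all genes, and the list median was 0.69. Cdkn1a, the cell cycle inhibitor p21, had levels of 3.33 with the GSK inhibitor, 2.78 with the MEK inhibitor, 3.47 with A83 and 2.52 with bFGF, so A83 was as high. Of 12 BMP targets 2 were at least 2-fold higher and 1 lower, near the 11.6% and 6.89% of all genes, and 10 stood above all 3 other arrays, against 39.0%. Id2, an inhibitor of bHLH factors, had levels of 3.06 with the GSK inhibitor, 0.01 with the MEK inhibitor, 2.54 with A83 and 1.02 with bFGF. TGF-beta and activin targets had a median of 0.03, which becomes -0.05 when arrays are scaled to their medians, with 3 members at least 2-fold higher and 3 lower. Fst, which binds activin, stood at 0.96 with the GSK inhibitor and -1.25 with bFGF, a 4.63-fold difference. Genes of glycogen metabolism, the pathway that gave GSK3 its name, had a median of -0.07, with 1 of 16 at least 2-fold higher and 1 lower.

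**Figure D4:**
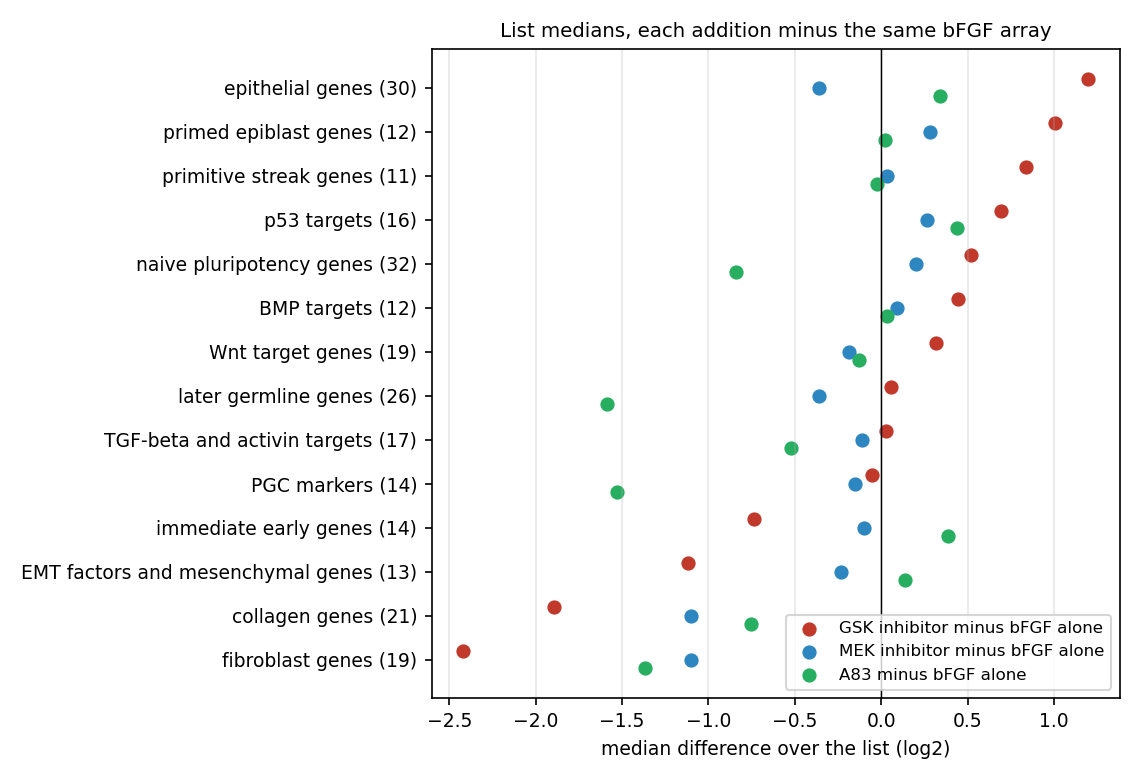
Median log2 difference from bFGF (x axis) over the measured members of 14 gene lists (y axis, with the number measured for the GSK inhibitor in brackets) for the GSK inhibitor, the MEK inhibitor and A83. The 3 differences share the same bFGF array. The GSK inhibitor has the highest median for epithelial genes, at 1.20, and the lowest for fibroblast genes, at -2.42.

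Of the 10 genes with the highest measured difference from bFGF, 5 had their spot in a bright patch of the GSK inhibitor array (Prr30, Prtn3, Padi6, Arntl2 and Robo4). Prr30 was highest, at 1.32 with the GSK inhibitor and -4.49 with bFGF. The genes with the 4 highest bounds and all 8 genes furthest above the other 3 arrays also lay in patches. Their spots are bright together with unrelated neighbours, so the values of these genes are not described further.

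Outside patches the highest differences belonged to genes of several kinds. Mest, an imprinted gene expressed from the paternal allele, had levels of 4.09 with the GSK inhibitor, 0.80 with the MEK inhibitor, 2.72 with A83 and 0.96 with bFGF, an 8.77-fold difference from bFGF. Nnat, a further imprinted gene, stood at 1.08 with the GSK inhibitor, -2.33 with the MEK inhibitor, 0.12 with A83 and -2.07 with bFGF. Pde10a, a phosphodiesterase of cyclic nucleotides, stood at -1.40 with the GSK inhibitor, -2.48 with A83 and -4.89 with bFGF, and was dim with the MEK inhibitor. In all 3 the A83 array came second. Spns2, an exporter of sphingosine-1-phosphate, was 10.4-fold higher and Ddn, a postsynaptic protein, 9.13-fold higher with the GSK inhibitor than with bFGF. The imprinted list as a whole had 4 of 20 genes at least 2-fold higher and 2 lower, with a median of 0.26, and it holds Dcn, which is also a fibroblast gene.

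Outside patches, some genes stood apart from all 3 other arrays, and these were named after their values had been seen. Zscan4c, a marker of 2-cell-like cells, had a level of -1.52 with the GSK inhibitor and was dim with the MEK inhibitor, A83 and bFGF, which makes it at least 14.4-fold higher than with bFGF. Its second probe was dim on both arrays, and near-identical copies of the gene may share its signal. Of the 6 measured genes of the 2-cell-like list it alone was at least 2-fold higher, and Usp17la was 2.32-fold lower. Tagln, the smooth muscle protein transgelin, had levels of 6.82 with the GSK inhibitor, 4.41 with the MEK inhibitor, 3.90 with A83 and 3.77 with bFGF. Its second probe differed from bFGF by 3.21, close to the 3.05 of the first. Over 14 contractile genes 4 were at least 2-fold higher and 1 lower, against 11.6% and 6.89% of all genes. After normexp, scaling to the median or quantile normalization 2 of them were higher. Acta2, smooth muscle actin, stood at 4.98 with the GSK inhibitor and 4.31 with bFGF. Its other probes well above background on both arrays were split, with differences from bFGF of 0.955, -0.984 and -0.99. Thbd, the endothelial and trophoblast receptor thrombomodulin, had levels of 0.70 with the GSK inhibitor, -2.45 with the MEK inhibitor, -1.56 with A83 and -2.13 with bFGF.

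Among the lowest genes were products of stromal cells and of the acute phase. Chl1, a cell adhesion molecule, had levels of -3.86 with the GSK inhibitor, -2.08 with the MEK inhibitor, -2.98 with A83 and 1.18 with bFGF. The GSK inhibitor was lowest, but all 3 additions lay far below bFGF. Serpina3n, a secreted protease inhibitor, was dim with the GSK inhibitor and at 0.89 with bFGF, at least 56.4-fold lower. Prelp, a matrix protein, was 15.5-fold lower, Saa3, serum amyloid A, 11.3-fold lower, and Cp, ceruloplasmin, 10.8-fold lower with the GSK inhibitor than with bFGF.

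The 8 genes furthest below all 3 other arrays were ranked apart. Slpi, a secreted inhibitor of leukocyte proteases, had levels of 2.04 with the GSK inhibitor, 4.40 with the MEK inhibitor, 5.13 with A83 and 4.79 with bFGF, so it was 5.15-fold below the next array. Fgf7, a growth factor made by mesenchyme for epithelia, stood at -3.19 with the GSK inhibitor, -1.06 with the MEK inhibitor, -0.73 with A83 and -0.52 with bFGF. C3, complement component 3, stood at 0.14 with the GSK inhibitor, 2.12 with the MEK inhibitor, 2.60 with A83 and 3.16 with bFGF. Gdf10, Aldh3a1, Gda and Tnxb were dim with the GSK inhibitor and well above background on the other 3, and Emilin2 completes the set. None of the 8 lies in a patch, and the second probe of Slpi was dim on both the GSK inhibitor and bFGF arrays. Over all genes the GSK inhibitor array was at least 2-fold above the other 3 for 379 of 18590 (2.04%) and below them for 309 (1.66%). Which count is larger depends on the scaling, with 314 above and 358 below when arrays are scaled to their medians and 312 above and 321 below after quantile normalization. Without patches the counts were 238 of 17645 (1.35%) above and 305 (1.73%) below.

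Across the series Sp5 had levels of -0.92 in uncultured PGCs and -3.21 at day 1 with bFGF, so the day 2 culture with the GSK inhibitor, at -1.98, stood between them and the one with bFGF, at -4.29, below both. Mest stood at 3.60 in uncultured PGCs and 2.87 at day 1, against 4.09 with the GSK inhibitor and 0.96 with bFGF at day 2. Krt8 stood at 4.08 in uncultured PGCs and 6.26 at day 1, against 5.96 with the GSK inhibitor and 3.95 with bFGF at day 2. For Mest and Krt8 the level with the GSK inhibitor was nearer to day 1 than the level with bFGF was, and for Sp5 it was not. Col3a1 stood at -1.23 in uncultured PGCs and 3.83 at day 1, against 1.50 with the GSK inhibitor and 5.49 with bFGF. Nr0b1, at 0.63 with the GSK inhibitor and -1.44 with bFGF, stood at 4.22 in the EGC line, and Zscan4c, at -1.52 with the GSK inhibitor, stood at -1.10 there. These arrays lie on other slides than the GSK inhibitor array.

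All 7 day 2 arrays were also fitted at once by limma, with an additive term for each inhibitor and for 4OHT, in which the GSK inhibitor term draws on the cultures with 2i as well. With 2 residual degrees of freedom, 0 of 19095 genes (0%) passed an adjusted p under 0.05, and 907 had an unadjusted p under 0.05. Sp5 had a term of 1.62 ± 0.43 (SE), Krt8 one of 1.41 ± 0.35 and Egr1 one of -1.85 ± 0.56, each with an adjusted p of 0.9016 by limma. In simulated data of this shape the fit recovered 91% of genes changed by 4 on the log2 scale and 16% of those changed by 2. The terms of these 3 genes were smaller than 2 in size. The simulated data had exactly additive levels and independent noise, with no slide differences and no bright patches. They therefore do not say why 0 genes passed on these arrays.

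With slide as a block in place of 4OHT, the term is read within slides and 1 residual degree of freedom is left. Then 417 genes passed (2.18%), 212 of them with a spot in a bright patch, and with such genes left out of the fit 311 of 17950 passed (1.73%), 189 higher (1.05%) and 122 lower (0.680%). In that fit limma gave every gene the same standard error, 0.40, so the p-values rest on a spread pooled over all genes. The 1 residual degree of freedom compares 2i and A83 against bFGF with 2i, A83 and 4OHT against 4OHT. The single-addition arrays add nothing to it. These p-values therefore measure neither the spread of those arrays nor departures of single additions from additivity. Of the Wnt targets Sp5 passed by limma, higher, with a term of 1.64 (adjusted p = 0.00976). Sp8 and Dkk1 also passed, with terms of 2.11 and 1.45. Sp8 was dim with the MEK inhibitor, A83 and bFGF, and Dkk1 was dim with the GSK inhibitor as well. Their terms rest on dim readings and add nothing to Sp5. Axin2 and Lef1 did not pass. Mixl1 passed with a term of 3.07 and Zscan4c with one of 3.12. For both, as for Sp8, levels of dim arrays enter as read. Of 30 epithelial genes 6 passed, all higher (Cldn3, Cldn4, Cldn6, Krt19, Krt8 and Ocln). Of 19 fibroblast genes 3 passed, all lower (Col1a1, Col6a1 and Pdgfra), and of 14 immediate early genes 3 passed, all lower (Egr1, Egr2 and Fosb). Of 14 ERK-responsive genes 2 passed, both lower (Egr1 and Fosl1). Of the naive genes, PGC markers and later germline genes 0 passed. Slpi, Twist2 and Gdf10 were lower and Mest, Nnat and Tagln were higher in the same fit. The genes named here were picked with their values on the GSK inhibitor array known, and the fit uses that same array. Passing it is therefore no separate support for them. The additive fit without the slide called none of these genes.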

How the data were processed

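Each of 22 samples was hybridised to 1 Agilent mouse array in 1 colour (Cy3) and annotated on mm9. The authors' files are output of Agilent Feature Extraction 10.7.3.1, per the file headers, and hold each spot's intensity on a linear scale, with the processed signal already background-subtracted and detrended within the array. A deposited value table holds the same processed signal intensity rounded, and was used as an alternative. Groups came from the sample titles, with 1 array a group, so nothing measures the spread between cultures.

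From the 43379 spots that are no controls, outlier spots were dropped, repeated spots averaged, log2 taken and each array's log2 75th percentile subtracted. Where probes of a gene differed, the one brightest on average across all 22 arrays stood for it, which gave 41174 probes and 28103 genes. Probes not well above background give bounds, at least 2-fold was the call, and 0 spots were saturated. The additive model was fitted with limma 3.58.1 in R 4.3.3 on genes measured at day 2, with Benjamini-Hochberg adjustment, and was tested on simulated data. The number of arrays limits the precision.

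Genes were named by rank (the 10 highest and 10 lowest measured differences, the 4 highest and 4 lowest bounds, the 8 furthest above and the 8 furthest below the other 3 arrays), with the measured Wnt targets and up to 6 members of each other list by size. Other members were named for their role after their values had been seen. The arrays, the 40 gene lists and the rule for named genes were chosen with earlier results of these data known. Some genes that the rule takes in are not reported here. Alternatives were normexp with an offset of 50, scaling to the median, quantile normalization, other filters on dim probes, the mean over probes, the deposited value table, slide as a block and, added after seeing the data, leaving out bright patches. Tables and figures used Python 3.11.15 with numpy 2.4.6, pandas 2.3.3 and matplotlib 3.10.9.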

Additional observations from a re-analysis of the deposited data

How the results depend on the processing

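With 1 array for each condition, no spread between cultures enters any difference from bFGF, and slide and treatment cannot be told apart there. No paired analysis was possible because each group has 1 array. The count of genes at least 2-fold apart from bFGF, 3188, was 1505 after normexp background correction and 5282 with no filter on dim probes. The count at least 2-fold apart from all 3 other arrays, 688, was 277 after normexp and 1176 with no filter, and its 379 above and 309 below became 314 above and 358 below when arrays were scaled to their medians, and 312 and 321 after quantile normalization. The 7 Wnt targets at least 2-fold apart were 4 when both arrays had to be well above background, and the 8 naive genes were 5 after normexp. Counts for epithelial genes, 17, and fibroblast genes, 14, ran between 15 and 17 and between 12 and 15 over all alternatives run. Scaling moved the median of all genes from 0.14 to 0.06, and the median of secreted Wnt inhibitors is -0.01 when arrays are scaled to their medians. The additive model called 0 genes under scaling to the median, quantile normalization, the deposited value table, the mean over probes, no filter, without the 4OHT arrays and without bright patches. It called 10 after normexp, of which 9 lay in bright patches, 417 with slide as a block, and 311 with slide as a block and patches left out, which was added after seeing the data. Of 915 values of single genes 2 changed sign, Adra1b to 0.071 and Tdrd1 to 0.081 with the mean over probes. The GSK inhibitor array had 58.9% of probes well above background, and of 1191 genes at least 2-fold lower than with bFGF 266 are bounds, with 925 measured on both arrays.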

Other observations

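Proliferation genes as a list were level between the cultures with the GSK inhibitor and with bFGF, with a median difference of -0.02 over 26 genes, 1 at least 2-fold higher and 3 lower. Mki67, a nuclear protein of cycling cells, stood apart from its list. Its level was -0.34 with the GSK inhibitor, 0.63 with the MEK inhibitor, 0.45 with A83 and 2.65 with bFGF. Top2a, the topoisomerase of dividing cells, stood at 2.33 with the GSK inhibitor, 3.12 with the MEK inhibitor, 2.96 with A83 and 3.50 with bFGF. Pcna, the replication clamp, had levels of 5.84 with the GSK inhibitor and 5.88 with bFGF. Mki67 and Top2a were lowest with the GSK inhibitor among the 4 arrays, and Pcna was level.

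Of 26 sterol and fatty acid synthesis genes, 19 stood above bFGF with the GSK inhibitor, with a median of 0.35, 2 at least 2-fold higher and 1 lower. Idi1, an enzyme of cholesterol synthesis, stood at 3.19 with the GSK inhibitor and 1.87 with bFGF. The desaturase Scd1 stood at 0.04 with the GSK inhibitor and 1.50 with bFGF. Idi1 thus stood above bFGF, and Scd1 below it. Slc2a1, the glucose transporter GLUT1, stood at 4.09 with the GSK inhibitor, 2.58 with the MEK inhibitor, 3.33 with A83 and 2.50 with bFGF, while the glycolysis list had a median of 0.21 over 19 genes. Sox9, a gonadal somatic gene and a Wnt-regulated gene in other tissues, stood at -1.08 with the GSK inhibitor, -0.76 with the MEK inhibitor, 0.93 with A83 and -0.46 with bFGF.

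Tie1, an endothelial receptor, was at -3.15 with the GSK inhibitor and dim with the MEK inhibitor, A83 and bFGF. It passed the slide-block fit of limma with a term of 3.00, though levels of dim arrays enter that fit as read. The fit also uses the same GSK inhibitor array, so this is no separate support. The other endothelial markers were mixed. Of 8 measured, 3 were at least 2-fold higher, Tie1, Esam and Robo4, and 1 lower, against 11.6% and 6.89% of all genes. The spot of Robo4 lies in a bright patch. Esam, an adhesion molecule, stood at -2.51 with the GSK inhibitor, -3.26 with the MEK inhibitor, -3.47 with A83 and -4.39 with bFGF. Kdr, a VEGF receptor and the member at least 2-fold lower, stood at -3.87 with the GSK inhibitor and -2.43 with bFGF. Pecam1, the adhesion molecule CD31, stood at -0.57 with the GSK inhibitor and -0.05 with bFGF.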
